A study of Mus musculus with 15 samples.

Results

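The antibody light chain is made from a variable (V), a joining (J) and a constant (C) segment, and the mouse has many V segments to choose from at its kappa locus and few at its lambda locus. The genes described here are the light-chain V segments, chosen by symbol as every gene named Igkv or Iglv whose Ensembl identifier is present in all 15 columns of the count tables. There were 62 of them, 59 kappa segments (Igkv, chromosome 6) and 3 lambda segments (Iglv, chromosome 16), out of 163 annotated in GENCODE M21 on GRCm38 and out of 37620 identifiers in the tables. The other 101 annotated segments, all kappa, are not analysed here, so every usage share below is a share of the counts on these 62 segments. Of the 62, 3 had no count in any library, 6 are annotated as pseudogenes and 56 as V genes.

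RNA came from the ileum of adult mice in a study of genes that depend on Rfx6, an endocrine transcription factor. All 15 mice had been given tamoxifen (10 mg by gavage, in repeated doses over 5 days), controls included, and were sampled 8 days or 3 months later. The mice labelled mutant were Rfx6f/f; Vilin-CreERT2, in which both copies of Rfx6 carry sites that Cre recombines and the villin promoter, known for its activity in intestinal epithelium, drives a tamoxifen-dependent Cre. There were 3 controls (all Rfx6f/f) and 4 mice labelled mutant at 8 days, and 4 controls (replicates 1 and 4 Rfx6f/f, replicates 2 and 3 Rfx6f/+) and 4 labelled mutant at 3 months. The ages of the mice, and which of 2 RNA extraction methods each had, are not given in the sources used here.

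Each B cell joins 1 V segment to 1 J segment on 1 productive light-chain allele and keeps that choice, so all descendants of a B cell carry the same V segment. Plasma cells, the end stage of the lineage, transcribe the joined gene at very high levels, and the intestinal wall holds many of them, most making immunoglobulin A for export across the epithelium. The RNA of a piece of ileum is therefore a mixture over many cells with different V segments. In the mouse most antibodies carry kappa light chains and a minority carry lambda.

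Libraries held 26078462 to 54468586 counts, of which 6364 to 17326 lay on the light-chain V segments. Any 2 libraries of a group differed by far more than counting error over their genes (chi-square per degree of freedom of at least 11.25), so none was a copy of another. Ileal epithelial markers were present in every library: Fabp6, the ileal bile acid binding protein, ranged from 556.5 to 2690 counts per 1000000 counts of the library's TMM-scaled size (CPM) and Vil1, which encodes villin, from 1586 to 2997 CPM. Rfx6 itself did not fall with the label. Its log2 fold change against controls was 0.19 (SE 0.18, edgeR adjusted p = 0.867) at 8 days and 0.72 (SE 0.17, edgeR adjusted p = 0.0347) at 3 months, so these groups are called the libraries labelled mutant throughout. The counts cover the whole gene and which exons Cre removes is not given in the sources used here, so recombination itself was not checked. The labels do not pair mice across groups, and they do not say more of how the samples of a group are related, so p-values measure the spread between these libraries.

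The segments on which the results turn are shown by the last 66 bases of their germline transcripts, from GENCODE M21 (GRCm38), 5′ to 3′. Capitals run from the codon of the conserved cysteine that closes the framework to the 3′ end, which is the V segment's own contribution to the third complementarity-determining region, the part of the antigen-binding site formed at the V-J joint.
Iglv1: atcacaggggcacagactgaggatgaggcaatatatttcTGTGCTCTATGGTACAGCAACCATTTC
Iglv2: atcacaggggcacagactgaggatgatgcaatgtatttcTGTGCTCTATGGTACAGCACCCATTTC
Igkv5-48: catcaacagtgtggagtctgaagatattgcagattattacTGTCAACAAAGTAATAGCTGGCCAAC
Igkv12-46: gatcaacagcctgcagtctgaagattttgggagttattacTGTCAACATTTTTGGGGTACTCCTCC
Igkv15-103: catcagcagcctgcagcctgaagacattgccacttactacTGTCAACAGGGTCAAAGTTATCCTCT
Igkv11-106: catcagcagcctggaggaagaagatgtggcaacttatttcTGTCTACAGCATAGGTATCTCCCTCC
Igkv4-72: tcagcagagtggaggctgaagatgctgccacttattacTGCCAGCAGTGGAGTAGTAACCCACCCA
Igkv4-90: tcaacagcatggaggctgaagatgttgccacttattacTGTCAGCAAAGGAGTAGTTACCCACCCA
Igkv4-91: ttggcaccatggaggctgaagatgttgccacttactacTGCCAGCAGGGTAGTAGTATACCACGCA
Igkv9-123: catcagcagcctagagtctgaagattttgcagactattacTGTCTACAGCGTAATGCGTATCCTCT

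The first 6 are both lambda segments of one near-identical pair and the 4 kappa segments of highest mean usage; the last 4 are segments that were high in 1 or 2 libraries. How far a read can be told apart matters for these genes. In the median segment, 82.55% of all 50-base windows of the germline transcript occurred in no other annotated transcript, and in 17 of the 62 all of them did. In 10 segments under 50% of windows were unique, with the lowest at 25.5% (Igkv8-16). Igkv5-48, Igkv15-103 and Igkv4-90 were among these 17. The unique share was 99.1% for Igkv9-123, 96.0% for Igkv11-106, 94.8% for Igkv4-91 and 90.2% for Igkv12-46. It was 77.8% for Iglv1, whose 366 aligned bases were 96.7% identical to Iglv2, and 75.6% for Igkv4-72. For 30 of the 62 segments the most similar segment was one of those not analysed here, and how the authors counted reads that match several segments is not given in the sources used here. Values of segments with many shared windows are therefore uncertain between near copies.

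Usage was uneven and differed from mouse to mouse. Over the 15 libraries the highest mean share of light-chain V counts was that of the lambda segment Iglv1 (10.1%, range 2.65 to 22.6%), followed by the kappa segments Igkv5-48 (8.86%, 1.24 to 20.3%), Igkv12-46 (8.21%, 2.74 to 18.9%), Igkv15-103 (5.53%, 0.386 to 12.1%) and Igkv11-106 (5.11%, 1.90 to 23.9%). The first place of Iglv1 came from the 8-day libraries labelled mutant, where its mean share was 19.5%. It averaged 9.52% in 8-day controls, 5.42% in 3-month controls and 5.80% in 3-month labelled mutants, and Igkv5-48 was above it in each of these groups (10.3%, 8.86% and 7.30%). The order of these 5 over all libraries was the same when counts were divided by exonic length. Igkv11-106 is annotated as a pseudogene in GENCODE M21, and it was at 1% or more in all 15 libraries. All 5 had a wide range, so their order by mean does not separate neighbours: Iglv1 was above Igkv5-48 on average but below it in control libraries such as replicate 3 of 3 months (3.43% against 20.3%).

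The segment of highest share was not the same in all libraries. At 8 days, Igkv5-48 led in controls 1 and 3 (12.7% and 16.3%), Igkv4-91 in control 2 (24.5%), Igkv12-46 in labelled mutants 1 and 4 (16.5% and 18.7%) and Iglv1 in labelled mutants 2 and 3 (22.6% and 22.5%). At 3 months, the leaders in controls 1 to 4 were Igkv4-57-1 (12.2%), Igkv15-103 (12.1%), Igkv5-48 (20.3%) and Igkv4-72 (20.8%). In labelled mutants 1 to 4 of 3 months they were Igkv5-48 (9.41%), Igkv4-72 (14.0%), Igkv8-30 (9.22%) and Igkv11-106 (23.9%). That makes 9 different leading segments in 15 mice, and 13 libraries had the same leader when counts were divided by length. The widest 95% interval (Wilson) of a share named in the text was 1.79 percentage points, for Igkv11-106 in labelled mutant 4 of 3 months (such intervals cover counting error only). In 9 libraries the interval of the leader lay above that of the second segment, with 6 different leaders among them. In the other 6 the intervals overlapped, so first place is not settled there: 8-day control 1 (Igkv5-48, then Igkv4-90 at 12.4%), 8-day labelled mutant 1 (Igkv12-46, then Iglv1 at 16.4%), and controls 1 and 2 and labelled mutants 1 and 3 of 3 months.

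Most segments were counted in every mouse, but few at a high share. Of the 62, 39 had a count in all 15 libraries. There were 8 segments at 1% or more in all 15 libraries (Iglv1, Igkv5-48, Igkv12-46, Igkv11-106, Igkv4-72, Igkv5-39, Igkv13-84 and Igkv6-32), and 23 segments reached 1% in no library. Each mouse had between 49 and 57 segments with at least 1 count, 29 segments had 10 counts or more in all libraries, and 9 had 10 in none. Segments reached 10% of V counts in 27 segment-library pairs. Of the 14 segments involved, 10 did so in a single mouse. A count of 0 allowed a share of up to 0.0173 to 0.0471%, depending on the library (3 counts of the V total).

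**Figure D1:**
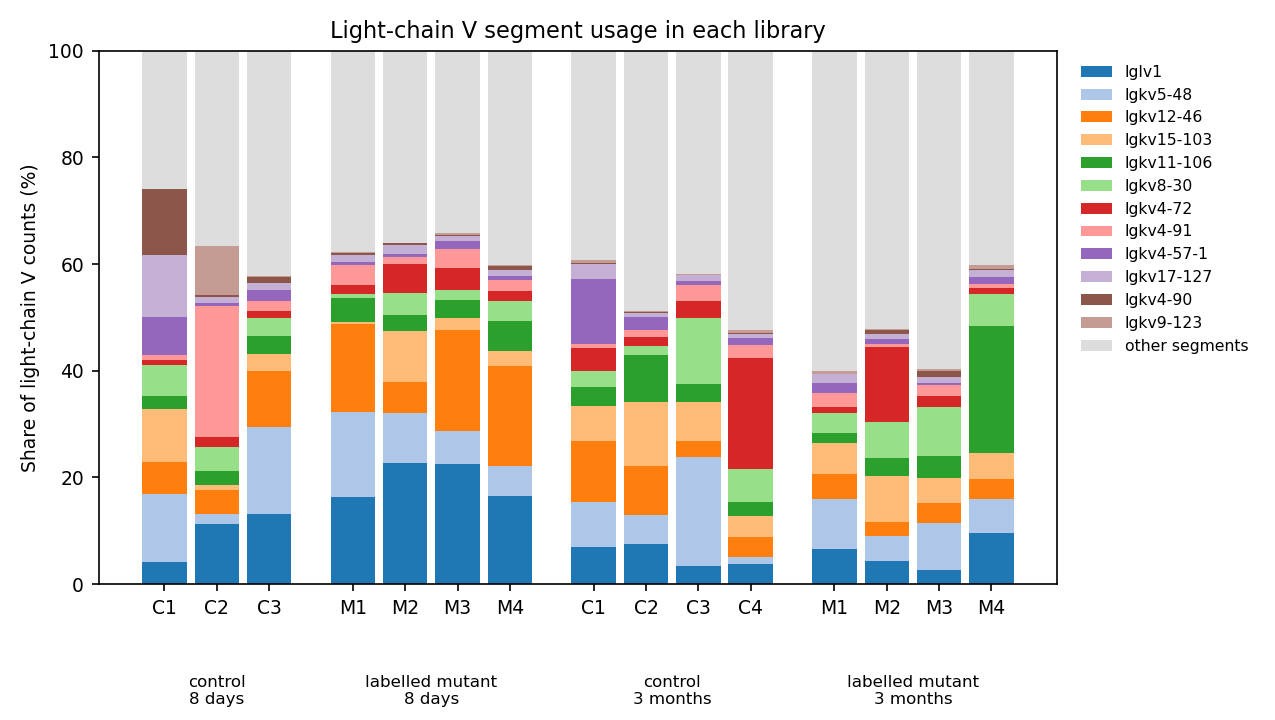
Share of light-chain V counts (vertical axis, percent) taken by 12 segments in each library, with controls (C) and libraries labelled mutant (M) of both cohorts along the horizontal axis. Iglv1 (dark blue) is broad in the 8-day libraries labelled mutant, and large blocks of Igkv4-91, Igkv4-72, Igkv4-57-1 and Igkv11-106 each stand in only 1 or 2 mice.

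Dominance was summarised by the share of the leading segment, by that of the 5 leading segments and by the inverse Simpson number, which is the count of equally used segments that would give the same concentration. At 8 days the inverse Simpson numbers were 13.2, 9.96 and 12.9 in controls and 10.4, 11.5, 9.90 and 11.4 in libraries labelled mutant. At 3 months they were 16.4, 15.3, 12.0 and 13.4 in controls and 21.3, 17.2, 21.6 and 11.4 in libraries labelled mutant. Within each cohort the groups overlapped. The 3 most even repertoires were those of 3-month labelled mutants 1, 2 and 3, and the fourth mouse of that group, with its large Igkv11-106 share, had the lowest inverse Simpson number and the highest leading share of its cohort, while control 3 had the highest share of the 5 leading segments (52.5% against 51.2%). The 5 leading segments together held 53.0 to 61.7% of V counts in the 8-day libraries and 38.2 to 52.5% in the 3-month libraries. With counts divided by exonic length the cohorts overlapped, at 52.53% in 8-day labelled mutant 2 and 53.1% in 3-month control 3. Thinning every library to 6364 V counts left the group medians of the inverse Simpson number at 13.0 and 10.7 (8 days, control and labelled mutant) and 14.3 and 19.0 (3 months), against 12.9, 10.9, 14.4 and 19.2 before. No test was made of these summary values, because they are scores over chosen genes.

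**Figure D2:**
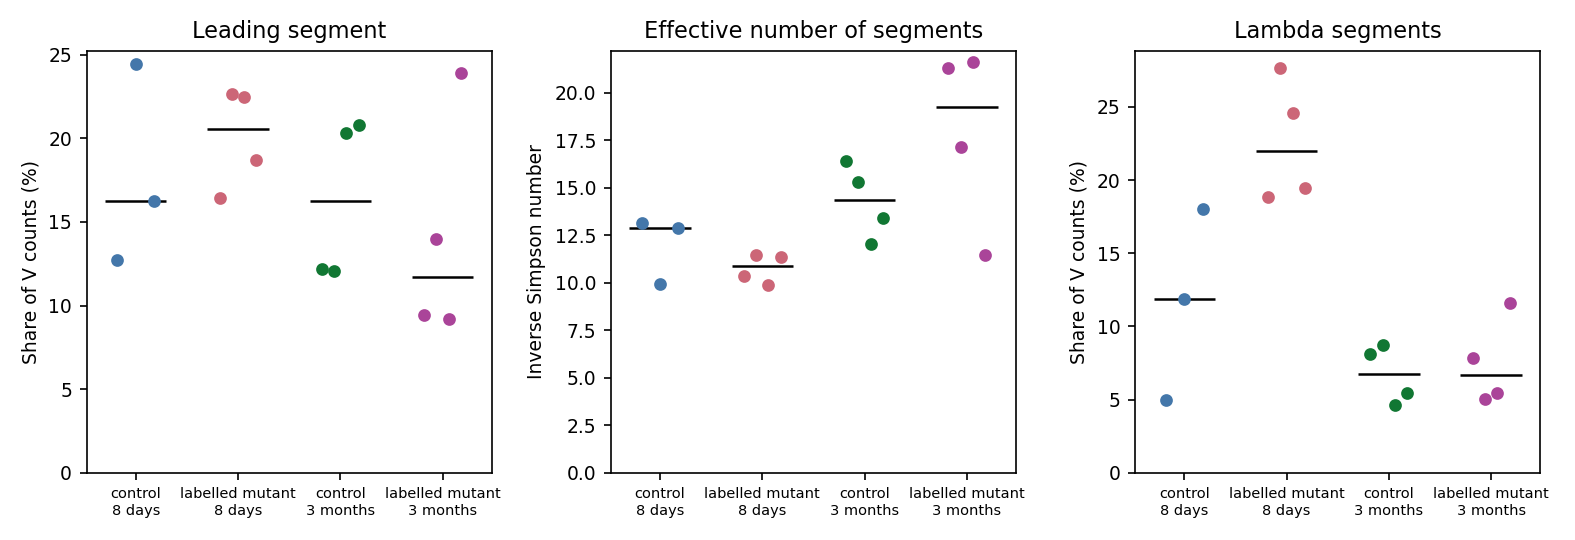
Share of V counts of the leading segment (left, percent), inverse Simpson number of segments (middle) and lambda share of V counts (right, percent), with 1 point per library and the group median as a line. Inverse Simpson numbers above 17 occur only in 3-month libraries labelled mutant, and lambda shares of 18.9% or more only in 8-day libraries labelled mutant. Shares are over the segments analysed, which hold all 3 annotated lambda but 59 of 160 annotated kappa segments.

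Some segments were far above their usual share in single mice, or in a pair of mice. A segment was counted as in excess in a library when it had at least 100 counts there and a share at least 5 times its median over the libraries of the same cohort. This gave 22 segment-library pairs over 17 segments and 13 of the 15 libraries, 13 pairs at 8 days and 9 at 3 months, 12 in controls and 10 in libraries labelled mutant. The choice of members used no such values, but the pairs were picked for their size, so their ratios are given as a description. Not every pair was isolated. Igkv8-27 made 10.89% in 8-day control 3, but also 8.40% in 8-day labelled mutant 1 and 7.56% in 8-day control 2. In CPM it was higher in another 8-day library (27.93 against 18.45). Igkv12-38 made 1.24% in 8-day labelled mutant 4 and 0.957% in 8-day labelled mutant 3.

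The 8-day control 1 had the most, with 5 segments in excess that together made 40.0% of its V counts. Igkv4-90 stood at 12.4% there (1084 counts, 95% interval 11.7 to 13.1%), 33.5 times its cohort median, while the next library had 1.11%. Igkv17-127 made 11.6%, Igkv4-57-1 7.05%, Igkv4-61 6.02% and Igkv6-13 2.97% in the same mouse. In 8-day control 2, Igkv4-91 made 24.5% (3295 counts, 95% interval 23.8 to 25.2%) and Igkv9-123 9.21% (1240 counts), while no other 8-day library passed 3.89% and 0.377% for these segments. Igkv9-123 was also at or under 0.851% in every 3-month library. Of these segments, Igkv17-127 (49.4% of windows unique, 97.5% identical to Igkv17-121) and Igkv4-61 (48.0% unique) share much sequence with others, while Igkv4-90, Igkv4-91 and Igkv9-123 share little.

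At 3 months the excesses were led by single segments. Igkv4-57-1 made 12.2% in control 1 and 0.459 to 2.40% in the other 7 mice. Igkv4-72 was high in 2 mice, control 4 (20.8%) and labelled mutant 2 (14.0%, 95% interval 13.3 to 14.7%), and at 1.12 to 4.41% in the rest. Igkv11-106 made 23.9% (2078 counts, 95% interval 23.0 to 24.8%) in labelled mutant 4, against at most 8.80% in the others. Control 3 and labelled mutant 1 of 3 months had no segment in excess. Igkv4-57-1, Igkv4-61 and Igkv4-90 were each in excess in 1 mouse of each cohort.

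**Figure D3:**
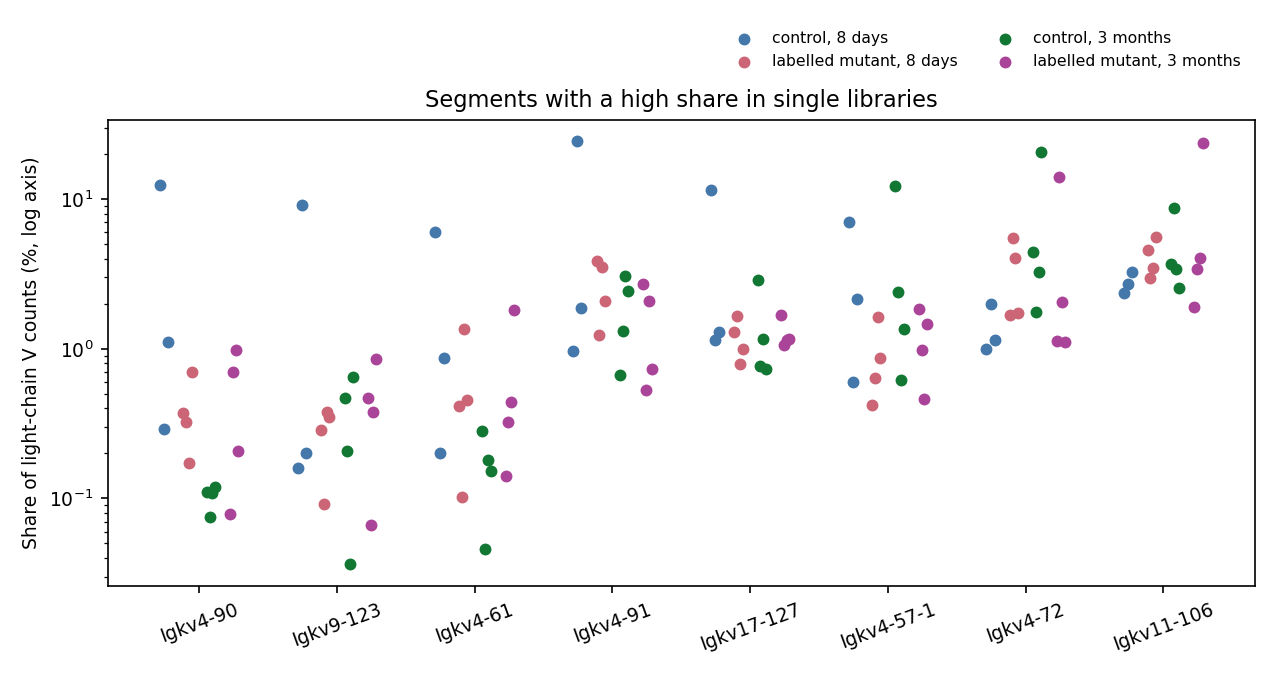
Share of V counts (vertical log axis, percent) of 8 segments in excess in 1 or 2 libraries of a cohort, with 1 point per library, coloured by group. Igkv4-90, Igkv9-123, Igkv4-61, Igkv4-91 and Igkv17-127 each have 1 point far above the rest, from an 8-day control, while Igkv4-72 has 2 high points from 3-month mice of different groups.

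By V family, which groups segments of similar sequence and is the number before the hyphen in the symbol, Igkv4 took the largest mean share (18.3% of V counts, 9.13 to 33.1%, 19 segments). It was followed by Igkv8 (15.3%, 7 segments), Igkv5 (12.8%, 3 segments) and Igkv12 (10.3%, 4 segments). These shares sum over unequal numbers of segments. The top of the Igkv4 range came from mice with such an excess: 33.1% in 3-month control 4, 31.8% in 8-day control 2 and 30.7% in 8-day control 1. Along the kappa locus, annotated segments were put in 3 parts of equal number, and the part nearest to the J segments held 32.6 to 70.4% of kappa V counts (median 49.3%, 22 segments). The farthest part held 12.9 to 48.1% (median 24.9%, 14 segments). Igkv11-106 lies in that farthest part, and the maximum was in 3-month labelled mutant 4. The kappa segments on the strand opposite to the majority, 16 of 59, held 14.1 to 50.5% of kappa counts.

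The J segments gave few counts (136 to 410 per library over Igkj1 to Igkj5). Igkj5 and Igkj4 were the most counted in most mice, with 19.3 to 37.9% and 21.95 to 37.6% of J counts, and Igkj1 made 4.07 to 11.8%. Igkj3, which carries a defective splice signal and is rarely found in joined light chains, made 10.3 to 25.5%. Reads that fall on J segments in total RNA need not come from joined genes, and which did was not tested.

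The summed level of the V segments had a lower median in the 3-month libraries labelled mutant than in the controls of that time. Summed V levels at 8 days were 289.4, 369.7 and 169.5 CPM in controls and 273.9, 196.1, 251.5 and 314.8 CPM in libraries labelled mutant. At 3 months they were 372.3, 528.6, 635.4 and 317.0 CPM in controls and 200.2, 288.2, 316.4 and 302.3 CPM in libraries labelled mutant. The groups overlapped at 8 days. At 3 months control 4 and labelled mutant 3 were nearly level, and per 1000000 deposited counts, without TMM scaling, the groups overlapped (326.1 in control 4 against 336.5 in labelled mutant 3). In bulk tissue, fewer cells of a type and less RNA per cell cannot be told apart.

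Igkc, the kappa constant segment, was at 1406 to 2130 CPM in 3-month controls and 732.2 to 1087 CPM in 3-month libraries labelled mutant. Jchain, the joining chain of secreted immunoglobulin A and M, was at 2008 to 2856 and 1060 to 1593 CPM. Both were lower in the libraries labelled mutant at 3 months, Igkc by a log2 fold change of -0.89 (SE 0.16, edgeR adjusted p = 0.0159) and Jchain by -0.85 (SE 0.16, edgeR adjusted p = 0.0182). Kappa V counts per 100 Igkc counts ranged from 19.0 to 39.8 over all libraries and overlapped between the groups of each cohort. Ighm, the constant segment of immunoglobulin M, and Ms4a1, which encodes the B cell surface protein CD20, followed another pattern. Ms4a1 was at 1.19, 3.68 and 7.63 CPM in 8-day controls, 1.93, 21.8, 40.8 and 47.4 CPM in 8-day labelled mutants, 20.8 to 50.9 CPM in 3-month controls, and 13.8, 1.60, 1.53 and 30.6 CPM in 3-month labelled mutants.

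**Figure D4:**
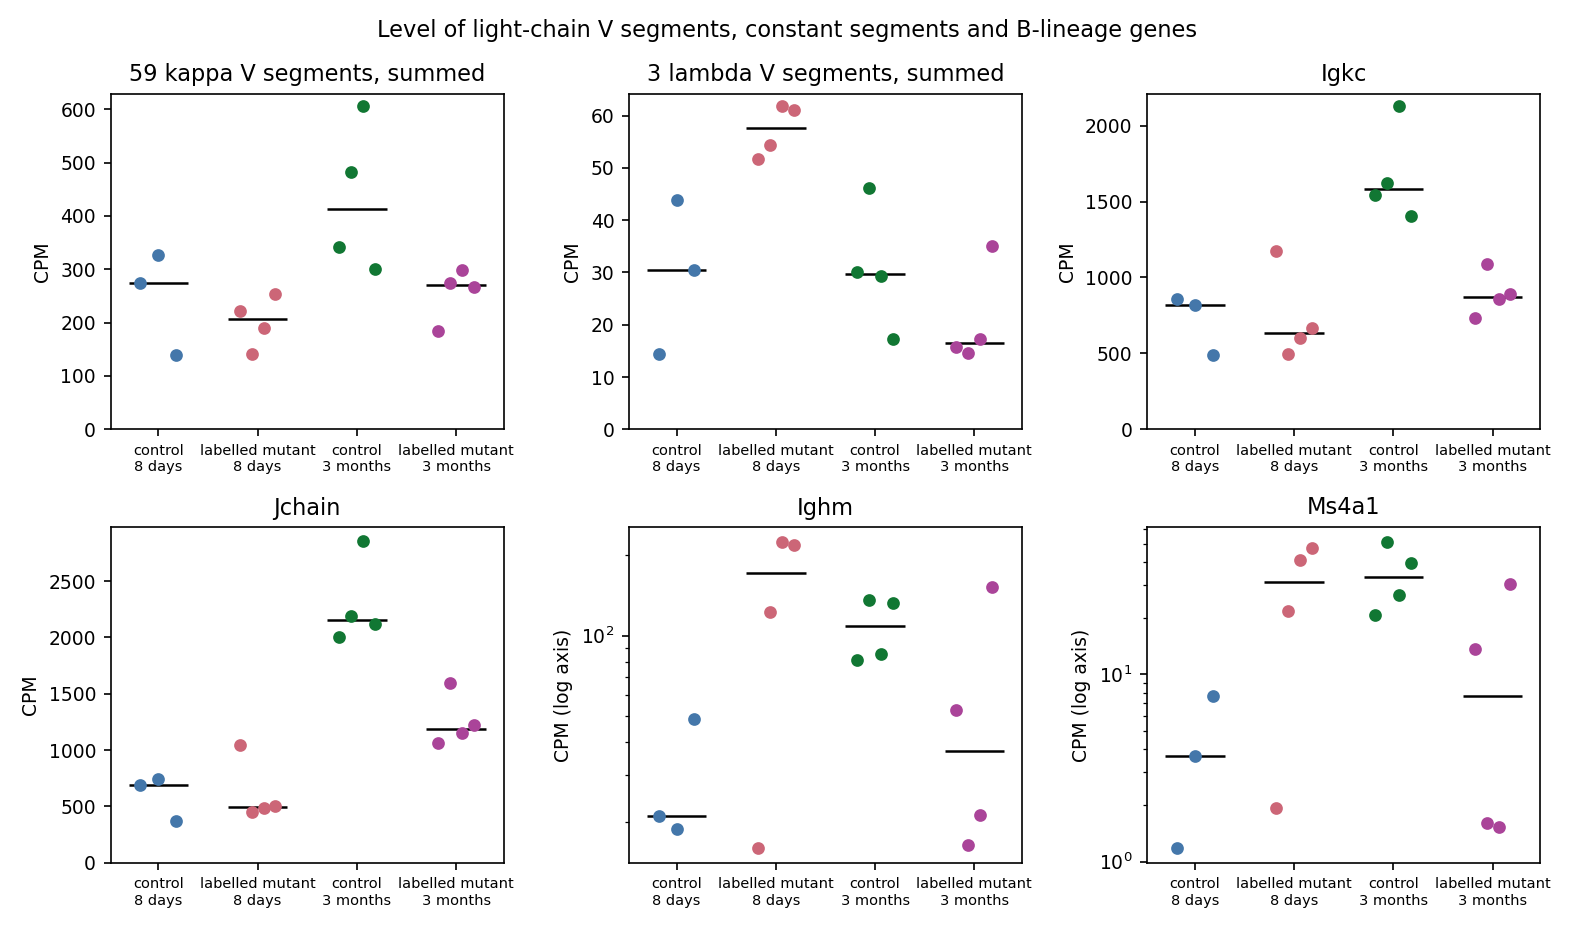
Level in CPM of the summed kappa and lambda V segments, Igkc, Jchain, Ighm and Ms4a1 (the last 2 on log axes), with 1 point per library and the group median as a line. At 3 months Igkc and Jchain lie lower in the libraries labelled mutant with no overlap, whereas Ms4a1 spans from 1.53 to 30.6 CPM among them.

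At 8 days no light-chain V segment passed the test between the libraries labelled mutant and controls. Of 41 segments with enough counts to test, 0 were called by edgeR (0.0915% of all genes tested were called), 1 by DESeq2 (Igkv8-16, where 1.02% of all genes were called), and 10 had an unadjusted p under 0.05 (8.8% of all genes). The median log2 fold change was 0.40 over the 41 segments, 24 of them positive, and -0.002 over all genes. The largest differences came from the controls with these excesses: Igkv9-123 had a log2 fold change of -3.99 (SE 1.42, edgeR adjusted p = 0.472) and Igkv4-90 of -3.62 (SE 1.142, edgeR adjusted p = 0.460), with groups that overlapped in both.

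The lambda segments did not pass at 8 days either. Iglv1 was at 12.0, 41.4 and 22.4 CPM in controls and 44.8, 44.4, 56.6 and 51.9 CPM in libraries labelled mutant, so all 4 of the latter were above the highest control. Its log2 fold change was 0.96 (SE 0.34, edgeR adjusted p = 0.472). Iglv3, the most divergent lambda segment, was at 1.92, 1.21 and 1.41 CPM against 1.98, 3.50, 2.38 and 2.80 CPM, a log2 fold change of 0.82 (SE 0.25, edgeR adjusted p = 0.460). These 2 of 41 members had all libraries labelled mutant above all controls, a share near that of all genes (3.84%), and none had them all below (3.8% of all genes). Without TMM scaling the groups of Iglv3 overlapped (1.905 in control 1 against 1.881 in labelled mutant 1), and those of Iglv1 did not. Iglv2, at 0.561, 1.29 and 6.77 CPM against 4.88, 6.43, 2.92 and 6.43 CPM, overlapped. Lambda segments together made 5.00, 11.9 and 18.03% of V counts in controls and 18.9, 27.7, 24.6 and 19.4% in libraries labelled mutant. These V counts cover all 3 annotated lambda segments but 59 of 160 annotated kappa segments, so lambda shares over all annotated segments could be lower.

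Igkv12-46 was at 17.7, 16.8 and 17.6 CPM in 8-day controls and 45.1, 11.6, 47.5 and 58.8 CPM in libraries labelled mutant. The controls lay close together and 3 of the 4 others were above them, with labelled mutant 2 below. The log2 fold change was 1.22 (SE 0.44, edgeR adjusted p = 0.473). Leaving out labelled mutant 2 gave 1.53 (edgeR adjusted p = 0.00461), which was the only change in the count of calls from leaving out a single library of this comparison.

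Markers of other B-lineage stages were uneven over the same libraries. Summed over 12 mature B cell genes, levels were 37.1, 46.7 and 85.4 CPM in 8-day controls and 39.2, 187.9, 405.1 and 431.0 CPM in labelled mutants 1 to 4. No gene of that list, of 12 plasma cell genes or of 8 tested genes of gut lymphoid tissue was called at 8 days. Labelled mutant 1, at the control level of B cell genes, had 51.7 CPM of lambda V segments, against 54.3 to 61.9 CPM in the other 3 labelled mutants and 14.5 to 43.9 CPM in controls. Iglc2, the only lambda constant segment analysed here, was at 11.8 CPM in labelled mutant 1. That was within the range of the controls (9.94 to 12.7 CPM) and below the other labelled mutants (19.1 to 32.4 CPM). Iglc1 and Iglc3 are not analysed here, so Iglc2 need not follow the summed lambda V segments. The part of B cell content in the lambda values was not tested.

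At 3 months 1 segment was called. Igkv12-46 was lower in the libraries labelled mutant, at 42.0, 48.7, 19.1 and 12.2 CPM in controls and 9.22, 7.90, 11.9 and 11.4 CPM in the libraries labelled mutant, with a log2 fold change of -1.58 (SE 0.40, edgeR adjusted p = 0.0426). Control 4 at 12.2 CPM was next to the highest labelled mutant at 11.9 CPM, and without TMM scaling the groups overlapped there (12.54 against 12.63). It was the only called segment of the 44 tested (9.28% of all genes were called in either direction) and, in CPM, the only one with all libraries labelled mutant below all controls (9.53% of all genes). The call was lost when any single library other than control 4 was left out (edgeR adjusted p from 0.0663 to 0.105). It was lost too with limma-voom (adjusted p = 0.0854), with robust empirical Bayes (edgeR adjusted p = 0.0644) and with Rfx6f/f controls only (log2 fold change -1.42, edgeR adjusted p = 0.195). Unadjusted p-values under 0.05 came from 9 of the 44 segments (29.4% of all genes).

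Igkv12-89 was the only segment with all 3-month libraries labelled mutant above all controls (9.7% of all genes). It was at 0.341, 0.305, 0.843 and 0.792 CPM in controls and 0.944, 1.12, 8.14 and 2.15 CPM in libraries labelled mutant, a difference of 2.48 on the log2 scale (SE 0.75, edgeR adjusted p = 0.0689). It passed with DESeq2 (2.47, adjusted p = 0.00337), which called 5 segments and 17.8% of all genes, and in the edgeR fit of all 15 libraries (2.46, adjusted p = 0.0266). It did not pass with limma-voom (adjusted p = 0.140), robust empirical Bayes (adjusted p = 0.0896) or Rfx6f/f controls only (edgeR adjusted p = 0.301). Labelled mutant 3 was the highest, and without it the difference was 1.32 (edgeR adjusted p = 0.115). The widely used Igkv5-48 (-1.26, SE 0.78, edgeR adjusted p = 0.310) and Igkv15-103 (-1.15, SE 0.45, edgeR adjusted p = 0.132) did not pass, and nor did Iglv1 (-0.65, SE 0.43, edgeR adjusted p = 0.342). The median log2 fold change was -0.61 over the 44 segments, 10 of them positive, against 0.01 over all genes.

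Some plasma cell genes were lower in the same 3-month libraries labelled mutant. Of 12 plasma cell genes, 7 were called lower and 0 higher (4.32% of all genes were called lower), Jchain (above) and Mzb1, a chaperone of antibody-secreting cells (log2 fold change -1.05, SE 0.16, edgeR adjusted p = 0.00915), among them. Their summed level was 2829 to 3753 CPM in controls and 1669 to 2288 CPM in libraries labelled mutant. Jchain made most of that sum (2008 to 2856 and 1060 to 1593 CPM), so the sum largely repeats the Jchain values. Of the 7 light-chain C and J segments tested, Igkc and Igkj3 were called lower and 0 higher. Of 10 T cell genes 8 were called lower, and of 12 mature B cell genes 0 were called, with sums of 146.8 to 324.6 CPM in controls and 34.5 to 212.6 CPM in libraries labelled mutant. The members' fold changes and those of the plasma cell genes come from the same libraries, and the part of plasma cell content in the call of Igkv12-46 was not tested. Its share of V counts, which depends also on the counts of the other segments, was 3.01 to 11.3% in controls and 2.74 to 4.60% in libraries labelled mutant, and overlapped.

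The difference between the cohorts in the effect of the label passed for 0 of 45 segments in edgeR (0.785% of all genes tested) and for 4 in DESeq2 (Igkv12-46, Igkv16-104, Igkv4-90 and Igkv8-16, where 6.02% of all genes passed). An unadjusted p under 0.05 came from 10 of the 45 (16.6% of all genes). Igkv12-46 came closest, at -2.82 (SE 0.66, edgeR adjusted p = 0.0558), from a log2 fold change of 1.22 at 8 days, which did not pass, and of -1.58 at 3 months. The call on it changed with the library set: it passed when 8-day labelled mutant 1 (adjusted p = 0.0404), 8-day labelled mutant 2 (adjusted p = 0.0281) or 3-month control 4 (adjusted p = 0.0363) was left out of the edgeR fit. For Iglv1 the difference was -1.63 (SE 0.61, edgeR adjusted p = 0.188).

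Between the cohorts, more segments were higher at 3 months than lower. Cohort, time after tamoxifen and age cannot be told apart here, and each cohort is its own deposited table. Of 45 segments, 18 were higher at 3 months (27.3% of all genes were) and 3 were lower (27.2% of all genes), with a median log2 fold change of 1.03 over the segments, 33 of them positive, and 0.01 over all genes. With mutant-labelled libraries alone 10 segments were called in either direction (37.8% of all genes were), and with controls alone 16 (45.1% of all genes). Light-chain C and J segments were higher in 6 of 7 cases and plasma cell genes in 7 of 12, with 1 lower, over the same libraries, and their part in the rise of the V segments was not tested.

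Igkv3-10 was the only member with every 3-month library above every 8-day library (9.5% of all genes had this, and 9.54% the reverse, which no member had). It was at 0.297, 1.10 and 0.678 CPM in 8-day controls, 0.552, 1.498, 1.72 and 0.599 CPM in 8-day labelled mutants, 1.81, 4.21, 3.91 and 7.20 CPM in 3-month controls and 2.86, 6.33, 2.57 and 3.06 CPM in 3-month labelled mutants. Its log2 fold change was 2.18 (SE 0.37, edgeR adjusted p = 0.000193). Only 46.5% of its 50-base windows are unique, since Igkv3-5, not analysed here, is 98.3% identical. The other large rises were Igkv1-99 (3.29, SE 0.83, edgeR adjusted p = 0.00391), a segment at 0 counts in 3 of the 8-day libraries, Igkv4-70 (2.67, SE 0.47, adjusted p = 0.000245), Igkv12-98 (2.32, SE 0.68, adjusted p = 0.00935) and Igkv2-137 (2.13, SE 0.44, adjusted p = 0.000976). With controls alone the calls of Igkv1-99 (edgeR adjusted p = 0.116) and Igkv12-98 (adjusted p = 0.102) ended, and with libraries labelled mutant alone that of Igkv2-137 (adjusted p = 0.0798). Igkv4-70 had few counts, 0 to 14 per 8-day library and 4 to 37 per 3-month library, and 36.1% of its windows are unique. Igkv2-137, with 44.0% of its windows unique, rose from 1.21 to 12.5 CPM over the 8-day libraries to 6.76 to 40.1 CPM over the 3-month libraries. Its exons overlap the annotated gene Gm42889, and without knowing whether counting used strand their reads cannot be told apart.

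The 3 segments lower at 3 months were Iglv1, Iglv2 and Igkv4-90. Iglv1 was at 12.0 to 56.6 CPM at 8 days and 8.37 to 40.2 CPM at 3 months (-0.84, SE 0.30, edgeR adjusted p = 0.0300). With controls alone its log2 fold change was -0.02 (edgeR adjusted p = 0.975), and with libraries labelled mutant alone -1.65 (edgeR adjusted p = 0.00712). The call also ended without 8-day control 2 (-0.56, edgeR adjusted p = 0.128) and with robust empirical Bayes (edgeR adjusted p = 0.0520). With edgeR adjusted p between 0.0503 and 0.0548 it ended without 8-day labelled mutant 3 or 4, 3-month control 3 or 3-month labelled mutant 1, 2 or 3. Iglv2 fell by 1.87 on the log2 scale (SE 0.50, edgeR adjusted p = 0.00591), and without 8-day control 3 by 1.04 (edgeR adjusted p = 0.0582). With controls alone it fell by 1.99 (edgeR adjusted p = 0.0434), while with libraries labelled mutant alone the call ended (-1.74, edgeR adjusted p = 0.0532). Igkv4-90 fell by 2.13 (SE 0.75, edgeR adjusted p = 0.0262), but without 8-day control 1, the mouse with its excess, it was -0.58 (edgeR adjusted p = 0.374). With controls alone its log2 fold change was -4.78 (edgeR adjusted p = 0.00374), and with libraries labelled mutant alone the direction turned (0.52, edgeR adjusted p = 0.714). The call on Igkv4-90 was lost too without 8-day labelled mutant 4 (-1.82, edgeR adjusted p = 0.0633) and with limma-voom (-1.39, limma-voom adjusted p = 0.245).

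**Figure D5:**
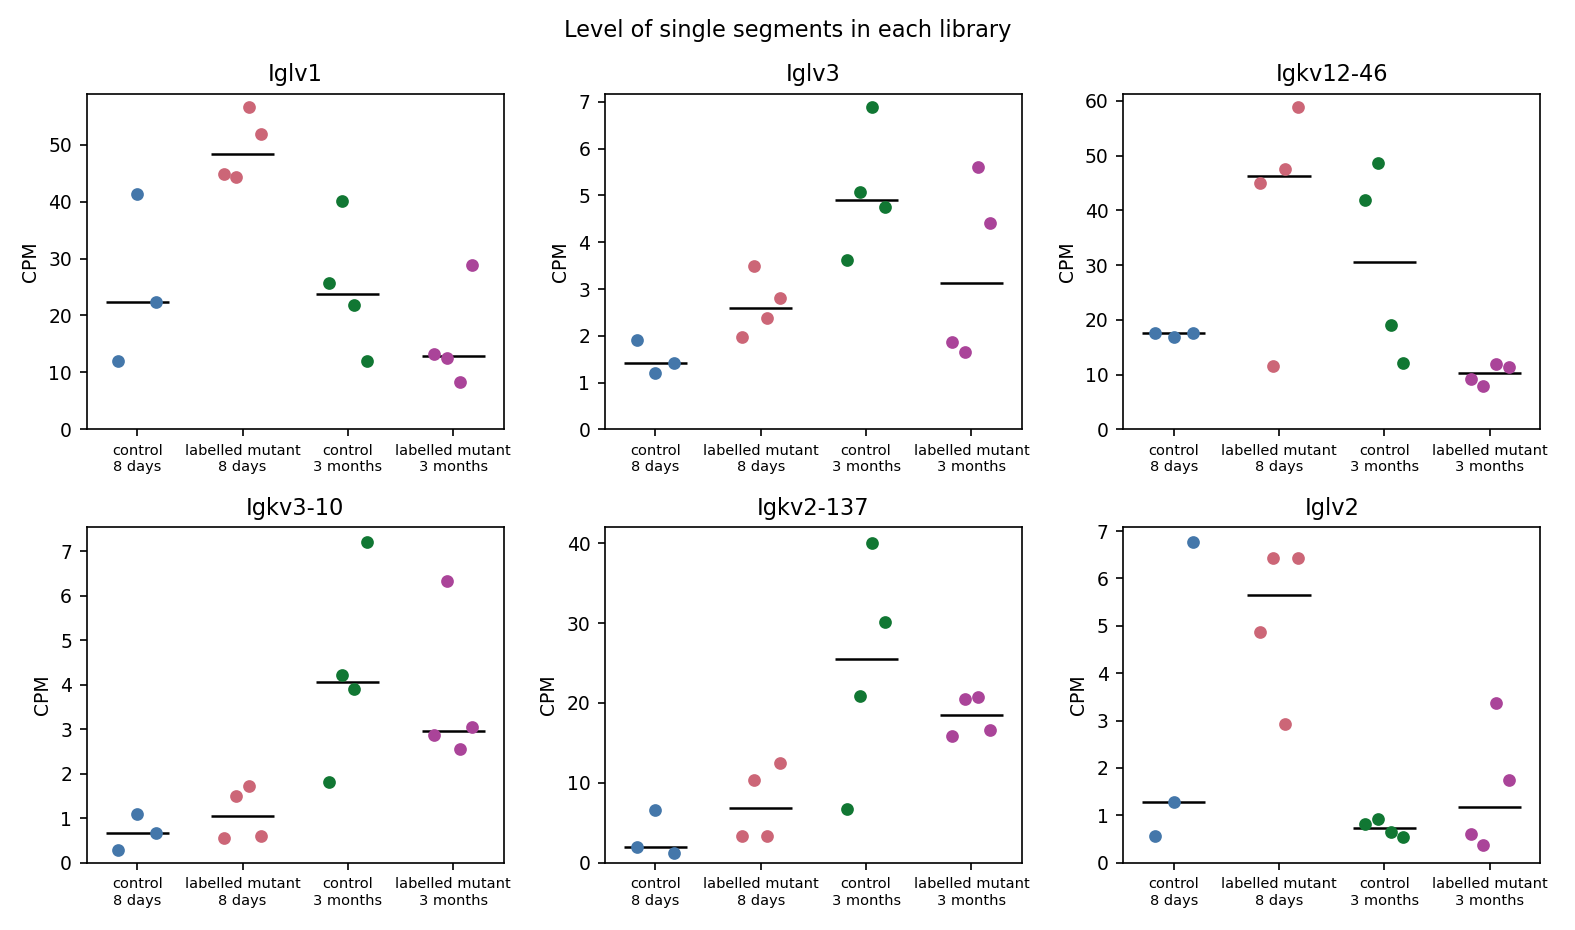
Level in CPM (vertical axes from 0) of Iglv1, Iglv3, Igkv12-46, Igkv3-10, Igkv2-137 and Iglv2 in each library, with the group median as a line. Iglv1 is at 44.4 to 56.6 CPM in the 8-day libraries labelled mutant, above all 8-day controls, and Igkv12-46 is at 7.90 to 11.9 CPM in the 3-month libraries labelled mutant, below all 3-month controls on this TMM scale.

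Usage of the 62 segments differed between mice of a group by nearly as much as between labels when both cohorts were pooled. The Bray-Curtis distance between shares (0 for equal usage, 1 for no shared segment) had a median of 0.363 over 21 pairs of the same group, 0.393 over 28 pairs of the same cohort with different labels and 0.453 over 56 pairs of different cohorts. The ranges overlapped, at 0.217 to 0.644, 0.241 to 0.558 and 0.300 to 0.616. At 8 days the medians were 0.324 within groups and 0.472 between labels, and at 3 months 0.381 and 0.372. The 8-day gap came from controls 1 and 2, which were at 0.462 to 0.558 from the libraries labelled mutant. Control 3 of 8 days was at 0.241 to 0.348 from them, nearer than to controls 1 and 2 (0.460 and 0.448). The most unlike pair within a group came from the 8-day controls. Pairs share libraries, so no test was made of these distances.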

How the data were processed

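The authors deposited raw counts per Ensembl gene, 1 column per mouse and 1 table per cohort. Per the labels' protocols, the library kit depleted ribosomal from total RNA, whereas the labels give the molecule as polyA RNA. The submitters' processing notes name bcl2fastq 2.17.1.14, Bowtie 1.0.0, TopHat2 2.0.10, Bowtie2 2.1.0, HTSeq 0.6.1 and the build mm9, with no role or order; the annotation release, strand handling and treatment of reads with several matches are not given in the sources used here. Every per-sample column was matched to a sample by its title.

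Symbols, gene types, exonic lengths, order in the locus and germline sequences came from GENCODE M21 (GRCm38), which named 32897 of 37620 identifiers (identifiers without a symbol held 0.675% of counts). As the builds differ, no coordinates are printed. For each cohort, all genes were fitted in edgeR 4.0.16 under R 4.3.3 and tested by quasi-likelihood F, after filterByExpr (minimum count 10) and TMM scaling, with a call at a Benjamini-Hochberg adjusted p under 0.05 over all genes. The 2 contrasts across cohorts used 1 fit of 15 libraries with 4 group means. CPM use TMM-scaled library sizes. Usage shares are counts over all light-chain V counts of a library, with 95% Wilson intervals that cover counting error only. The fits were tested on simulated counts. Alternatives included DESeq2 1.42.0, limma 3.58.1 (voom), other scaling and filters, and leaving out each library.

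Members and gene lists were chosen with earlier results of these data known. Segments named were the 5 of highest mean share, each library's leader, the calls (the 5 largest rises where over 10), the 10 largest single-library excesses and all lambda segments. Segments outside this rule (Igkv8-16, Igkv12-89, Igkv16-104, Igkv17-121, Igkv4-68, Igkv4-80, Igkv6-13, the Igkj segments and those listed at 1% in every mouse) were chosen after their values were seen. Constant segments Igha, Iglc1 and Iglc3 are not analysed here, and the planned search for an octamer in promoters was not run, as the promoter table used here held no member.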

Additional observations from a re-analysis of the deposited data

Results flagged for a closer look

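In groups of 4 libraries, a share was marked when the gap between the outermost library and its neighbour was above Dixon's 95% critical value for the group's range. Of 108 segment or summary values by group, 10 were marked. Chance alone marks about 1 in 20 values that were not chosen for their spread, but some of these segments were named because they led a library or were in excess in one, so that share is no background for them. The values of different segments in a library are not independent either. All 10 were high shares of a single segment in a single library.

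In 3-month control 4, Igkv4-72 made 20.8% of V counts (1.77 to 4.41% in the other 3 controls), Igkv12-98 6.202% (0.165 to 0.860%) and Igkv4-80 2.30% (0.6003 to 0.760%). In 3-month control 1, Igkv4-57-1 made 12.2% (0.621 to 2.40%), and in 3-month control 3, Igkv12-38 made 0.277% (0.0635 to 0.0825%).

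In 3-month labelled mutant 2, Igkv4-72 made 14.0% (1.12 to 2.06% in the other 3) and Igkv4-50 2.46% (0.322 to 0.581%). In 3-month labelled mutant 4, Igkv11-106 made 23.9% (1.90 to 4.07%), and in 3-month labelled mutant 1, Igkv17-127 made 1.68% (1.07 to 1.16%). The only mark at 8 days was Igkv4-50 in labelled mutant 3, at 2.89% (0.0840 to 0.497%). The 8-day controls, with 3 libraries, were not examined this way, although they hold the largest single-library excesses.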

How the results depend on the processing

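The number of segments called at 8 days was 0 with edgeR, 1 with DESeq2, and 0 to 1 with each library left out. At 3 months it was 1 with edgeR, 5 with DESeq2, 0 with limma-voom, 0 with robust empirical Bayes, 2 in the fit of all 15 libraries, 0 with Rfx6f/f controls only and 0 to 3 with each library left out (0 without control 1 or 2 or labelled mutant 1, 2 or 4, and 3 without control 4). Without control 3 or labelled mutant 3 the call was on another segment, Igkv4-68 or Igkv16-104. For the difference between cohorts it was 0 with edgeR, 4 with DESeq2, 1 with no filter, 1 with at least 10 counts in every library and 0 to 2 with each library left out. Between cohorts it was 21, with 10 in libraries labelled mutant alone and 15 to 22 with each library left out. The share of all genes called is given above for the main fits, DESeq2 and the fits of 1 label. For the other settings it is not given here, so their counts of segments cannot be read against it. Segment-library pairs in excess numbered 22, 40 at a threshold of 3 times and 5 at 10 times. Leaving out annotated pseudogenes moved the median inverse Simpson number of 8-day labelled mutants from 10.9 to 10.1. Library sizes without TMM scaling, an alternative chosen after seeing the data, left the 3-month group medians of summed V level at 457.7 (control) and 307.0 (labelled mutant), against 450.5 and 295.2 CPM with it. The other alternatives moved no group median of level, kappa share or dominance by as much as the SD of its group.

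Over 45 fold changes of named segments and 955 values under alternatives, 831 kept direction and side of the threshold, 90 lost the call, 14 gained a call and 20 changed sign. The sign changed for Igkv4-90 between cohorts in libraries labelled mutant (0.52), Igkv5-48 there (-0.27) and Igkv12-46 in controls (0.81), for Igkv11-106 at 3 months with limma-voom (-0.47) and for Igkv5-48 at 3 months with Rfx6f/f controls only (0.16). In the difference between cohorts it changed with Rfx6f/f controls only for Igkv15-103 (0.40), Igkv11-106 (0.60) and Igkv5-48 (0.15), and with limma-voom for Iglv2 (-0.67). Leaving out single libraries spanned 0 for Igkv15-103 (-1.29 to 0.93) and Igkv5-48 (-0.45 to 0.46) at 8 days, Igkv11-106 at 3 months (-1.32 to 0.78) and Igkv5-48 between cohorts (-0.21 to 0.61). In the difference between cohorts it did so for Igkv15-103 (-2.08 to 0.12), Igkv11-106 (-1.94 to 0.20) and Iglv2 (-1.40 to 0.74). The cause was not tested. No paired analysis was possible because the labels give no replicate numbers that pair mice across groups.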
